A study of Mus musculus with 6 samples.

Results

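Transcripts of the p53 family and of the damage response around it were followed in mouse germinal vesicle (GV) oocytes, which have finished growth and wait in meiotic prophase with an intact nucleus. The 10 genes were listed by name: the family members Trp53, Trp63 and Trp73, the checkpoint kinases Chek1 and Chek2, the p53 antagonist Mdm2, and the death or arrest targets Pmaip1, Bbc3, Cdkn1a and Ccng1. All 10 were found among the 27179 Entrez gene identifiers of the count files. The knockout group held 3 libraries of oocytes in which Cre recombinase, driven by the oocyte-specific Zp3 promoter, had removed the loxP-flanked exon 5 of Prdm10, a zinc finger gene of the PRDM family. The other group held 3 wildtype libraries. The sources used here give neither the age nor the strain of the mice, nor whether wildtype mice carried the floxed allele or the Cre. Each library was RNA from a pool of about 10 oocytes. The titles call the pools biological replicates without saying which mice they came from, and the p-values below reflect the variation among these pools, which may be technical. The list was drawn up with earlier results of these data known, including opposite moves of Trp63 and Trp73 and the behaviour of Pmaip1, so the tests of those genes describe their size and spread and are no independent evidence.

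The p53 family consists of transcription factors that bind a shared DNA element and switch on genes of cell cycle arrest and cell death. In resting oocytes of early follicles the damage sensor is p63 (Trp63). The kinase CHK2 (Chek2), followed by casein kinase 1, activates its full-length form, which then turns on the genes of the BH3-only proteins PUMA (Bbc3) and NOXA (Pmaip1). Whether this route acts in fully grown GV oocytes was not tested. Trp63 and Trp73 are each read from alternative starts, one giving the full-length form and the other a shortened form without the first activation domain, and a count per gene does not tell these forms apart.

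Total counts lay between 33698776 and 37966868 in knockout libraries and between 22492228 and 38831227 in wildtype libraries, and 14957 genes were tested. Prdm10 itself had 2.80, 3.82 and 3.05 CPM (reads scaled to a common library size) in knockout replicates 1 to 3, against 10.4, 23.1 and 23.0 CPM in wildtype replicates 1 to 3 (log2 fold change -2.54, SE 0.33, adjusted p = 0.00436, edgeR quasi-likelihood test, Benjamini-Hochberg over all tested genes). That count also takes in exons outside the deleted one. Wildtype replicate 1 stood apart: 9.12% of genes with at least 5 CPM in wildtype differed over 2-fold from the mean of the other wildtype libraries, against 0.509% for each of wildtype replicates 2 and 3. All 15 oocyte markers were abundant enough to test and 1 of them, Mos, fell, where 5.34% of all tested genes fell. Without wildtype replicate 1 the oocyte markers had 2 called higher and 4 lower, where 16.7% of all tested genes were called higher and 17.7% lower. None was called when a library other than that was left out. Their summed level was 36002 to 39118 CPM in knockout and 30478 to 36663 CPM in wildtype libraries. The 14 granulosa and cumulus markers summed to 78.2 to 90.8 CPM in knockout and 86.5 to 95.1 CPM in wildtype libraries, and the 11 theca and stroma markers to 7.60 to 19.7 CPM in knockout and 6.13 to 23.3 CPM in wildtype libraries. None of the 13 and 5 members of those lists that could be tested passed the test. Without wildtype replicate 1 the granulosa marker Has2 was called higher (log2 0.80, adjusted p = 0.0251, edgeR) and Cyp19a1 lower (log2 -0.64, adjusted p = 0.000857, edgeR). In that fit the median log2 fold change of the 13 tested granulosa markers was 0.73, against 0.0069 over all tested genes. It was 0.12 with all libraries. Several of these markers rest on few reads, such as Foxl2 with 3 and 0 reads in wildtype replicates 2 and 3. The summed level does not show this shift, as Cyp19a1 was its largest part, at 25.1 to 47.3 CPM. Of 10 blood, immune and endothelial markers 3 were tested and 1 passed, Cd68 (10.6 ± 0.41 CPM in knockout, 2.10 ± 1.33 CPM in wildtype, SD, n = 3 each). The Cd68 call was lost when any single knockout library was left out. The list's sum, 117 to 121 CPM in knockout and 36.7 to 82.4 CPM in wildtype libraries, was mostly that of 1 gene, Pecam1, at 103, 105 and 105 CPM in knockout replicates 1 to 3, against 30.4, 75.6 and 75.7 CPM in wildtype replicates 1 to 3 (adjusted p = 0.143, edgeR). Without wildtype replicate 1 Pecam1 joined Cd68 among the genes called higher (log2 0.47, adjusted p = 0.000207, edgeR). Apart from Pecam1, Cd68 and Kdr the markers stayed below 1 CPM in every library, with the defining markers Hba-a1 and Cdh5 at 0 throughout, so the sum does not describe those cells as a class. The part of these markers in the results below was not tested. In such pools, fewer cells of a type and less RNA per cell cannot be told apart.

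Of the 10 genes 9 had enough counts to test. Pmaip1, Ccng1 and Trp63 rose and Trp73 fell in knockout oocytes, and Trp53, Mdm2, Chek1, Chek2 and Cdkn1a did not pass the test. Bbc3 was at the limit of detection. Over all tested genes 11.2% were called, 5.87% higher and 5.34% lower in knockout. In the 4 called genes every knockout library lay on one side of every wildtype library, which held for 40.2% of all tested genes. Without wildtype replicate 1 the 4 calls stayed in the same direction and Trp53 joined the genes called higher, while 34.4% of all tested genes were then called.

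**Figure D1:**
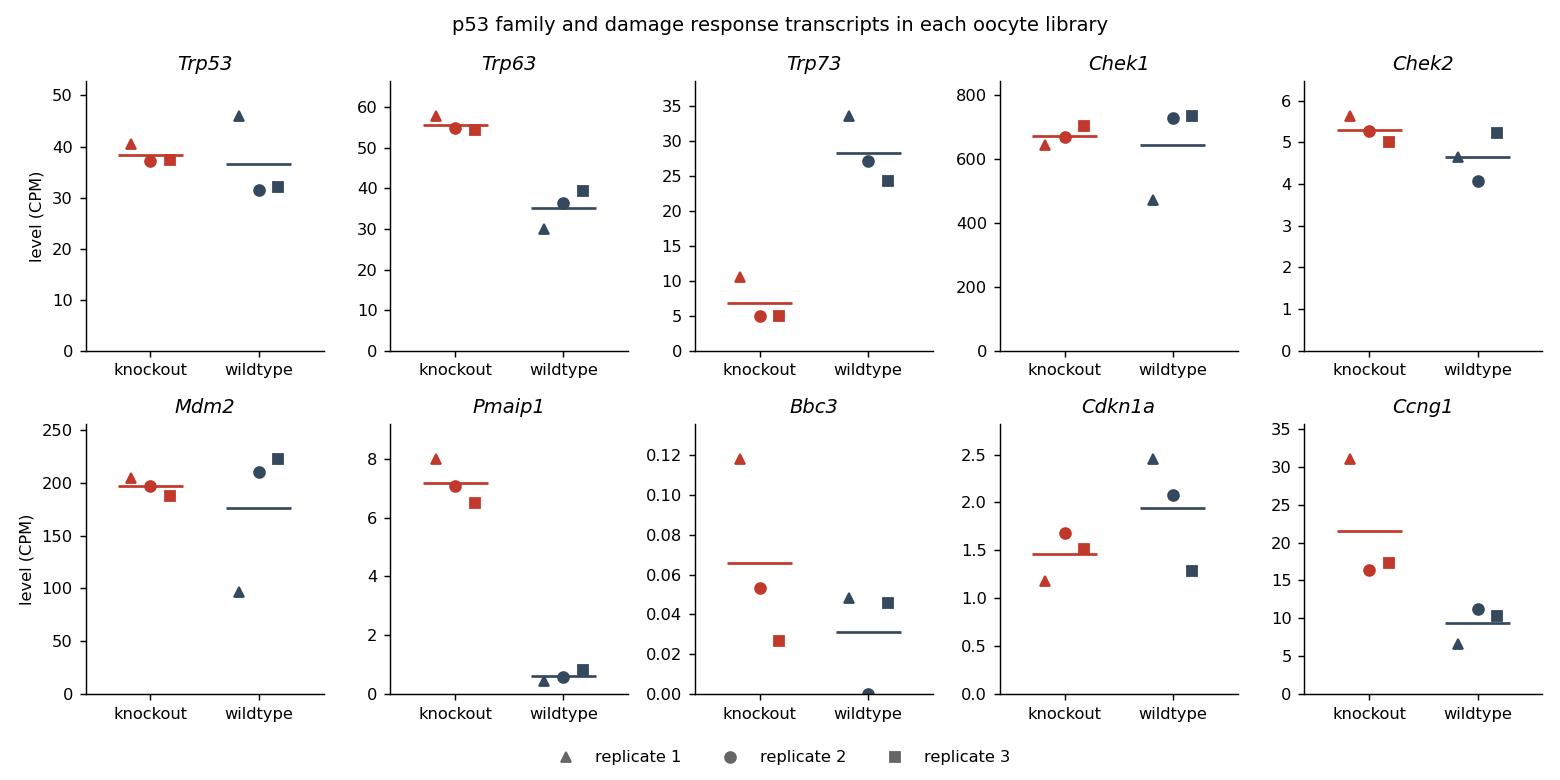
Level of each of the 10 genes in CPM (vertical axes, each from 0) in the 3 knockout and 3 wildtype libraries. Points are single libraries with a marker for each replicate number and bars are group means; Trp63, Pmaip1 and Ccng1 lie higher in every knockout library, Trp73 lies lower, and Mdm2 and Chek1 have 1 low library, wildtype replicate 1.

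Trp53 (Entrez 22059, GRCm38 chromosome 11, 69580348 to 69591873) encodes p53, the family's founding tumour suppressor. It had 40.4, 37.2 and 37.3 CPM in knockout replicates 1 to 3, against 45.9, 31.5 and 32.0 CPM in wildtype replicates 1 to 3. The groups overlapped, because the single highest level was that of wildtype replicate 1 while the other wildtype libraries lay lowest. The log2 fold change was 0.07 (SE 0.17, adjusted p = 0.821, edgeR). This outcome rested on that library: without wildtype replicate 1 the log2 fold change was 0.27 (adjusted p = 0.0290, edgeR).

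Trp63 (Entrez 22061, chromosome 16, 25683763 to 25892088) had 57.8, 54.8 and 54.4 CPM in knockout replicates 1 to 3, against 29.9, 36.5 and 39.3 CPM in wildtype replicates 1 to 3. The knockout libraries lay close together and all above the wildtype ones, and each library held at least 859 reads of the gene. The rise was 1.58-fold (log2 0.66, SE 0.14, adjusted p = 0.0242, edgeR). Its size changed little when single libraries were left out, with log2 fold changes between 0.55 and 0.75, but its call depended on them. The adjusted p was 0.116, 0.104 and 0.0979 without knockout replicates 1, 2 and 3 and 0.0642 without wildtype replicate 2, and it was under 0.05 without wildtype replicate 1 or 3. Among 9309 other genes of at least 5 CPM, the patterns over the 6 libraries most like that of Trp63 were those of Nudt9, Il34 and Syt2, with root mean square differences of 0.0336, 0.0351 and 0.0380 between the centred log2 levels.

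Trp73 (Entrez 22062, chromosome 4, 154056249 to 154139875) moved the other way. It had 10.6, 4.94 and 4.93 CPM in knockout replicates 1 to 3, against 33.5, 27.1 and 24.3 CPM in wildtype replicates 1 to 3. The groups did not overlap, and knockout replicate 1 was the highest of its group by far. The gene fell 4.16-fold (log2 -2.06, SE 0.32, adjusted p = 0.00884, edgeR), and 69 of the 14957 tested genes, Trp73 included, fell at least as far. The log2 fold change was -2.52 without knockout replicate 1, which is the library nearest to wildtype here. Without knockout replicate 2 it was -1.90 and the adjusted p was 0.0510, just past the threshold. The genes with the most similar pattern were Slc41a1, Selenoh and Bccip, at root mean square differences of 0.313, 0.381 and 0.385. These differences exceed those of the genes nearest to Trp63. The measure is not scaled to the size of a gene's change, and Trp73 changed more than Trp63.

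Set against exon length, the balance of the family differed between the genotypes. Per kilobase of annotated exon, Trp63 stood at 3.59, 7.32 and 7.28 times the level of Trp73 in knockout replicates 1 to 3, against 0.587, 0.888 and 1.06 times in wildtype replicates 1 to 3. Trp73 made up 10.2%, 5.38% and 5.36% of the summed level of the 3 family members in the knockout libraries, against 28.9%, 28.8% and 25.9% in the wildtype libraries. Trp63 made up 36.6%, 39.3% and 39.0% in the knockout libraries, against 17.0%, 25.5% and 27.6% in the wildtype libraries. The summed level itself overlapped, at 18.8, 16.6 and 16.6 CPM per kilobase in knockout and 21.0, 17.0 and 17.0 CPM per kilobase in wildtype. These shares describe genes picked for their opposite moves and carry no test, and the length is that of all exons of each gene, of which a single transcript form uses a part.

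The kinases that act above the family were present at very different levels. Chek1 (Entrez 12649, chromosome 9, 36708482 to 36726658) encodes CHK1, the kinase of the ATR arm. It had 646, 668 and 703 CPM in knockout replicates 1 to 3, against 471, 730 and 735 CPM in wildtype replicates 1 to 3. The groups overlapped, with wildtype replicate 1 the lowest and the other wildtype libraries the highest (log2 0.06, SE 0.18, adjusted p = 0.853, edgeR). The sign turned without wildtype replicate 1, to -0.12 (adjusted p = 0.0979, edgeR). Chek2 (Entrez 50883, chromosome 5, 110839800 to 110874140) encodes CHK2, the kinase that acts on p63 in damaged resting oocytes. It had 5.63, 5.26 and 5.01 CPM in knockout replicates 1 to 3, against 4.66, 4.08 and 5.21 CPM in wildtype replicates 1 to 3 (log2 0.19, SE 0.17, adjusted p = 0.481, edgeR). The groups overlapped through wildtype replicate 3 alone.

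Mdm2 (Entrez 17246, chromosome 10, 117688875 to 117710758) encodes the ubiquitin ligase that marks p53 for degradation and is itself a p53 target. It had 205, 197 and 188 CPM in knockout replicates 1 to 3, against 96.4, 210 and 222 CPM in wildtype replicates 1 to 3. All knockout libraries lay between wildtype replicate 1 and the other wildtype libraries (log2 0.16, SE 0.28, adjusted p = 0.738, edgeR). The log2 fold change was -0.14 without wildtype replicate 1 (adjusted p = 0.101, edgeR).

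Pmaip1 (Entrez 58801, chromosome 18, 66458604 to 66465558) encodes NOXA, a BH3-only protein that binds MCL1 and promotes cell death. It had 7.99, 7.08 and 6.52 CPM in knockout replicates 1 to 3, against 0.432, 0.578 and 0.823 CPM in wildtype replicates 1 to 3. The groups were far apart, with 271, 265 and 246 reads in the knockout libraries and 18, 15 and 18 reads in the wildtype libraries. The rise was 12.1-fold (log2 3.60, SE 0.26, adjusted p = 0.000384, edgeR), and 21 of the 14957 tested genes, Pmaip1 included, rose at least as far. With any 1 of the 6 libraries left out the log2 fold change lay between 3.37 and 3.85 and the adjusted p was at most 0.00715 (edgeR).

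Bbc3 (Entrez 170770, chromosome 7, 16308398 to 16318334), the gene of PUMA and the other BH3-only target of p63 in resting oocytes, was barely detected. It had 4, 2 and 1 reads in knockout replicates 1 to 3, against 2, 0 and 1 reads in wildtype replicates 1 to 3. A count of 0 in wildtype replicate 2 allows a level of up to 0.116 CPM (3 counts, counting error only). A small difference was therefore not detectable at this depth, and no fold change is given. The knockout levels of 0.118, 0.0534 and 0.0265 CPM lay far below the 6.52 to 7.99 CPM of Pmaip1 in the same libraries.

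Cdkn1a (Entrez 12575, chromosome 17, 29090979 to 29100722) encodes p21, the inhibitor of cyclin-dependent kinases through which p53 arrests the cell cycle. It was scarce, with 1.18, 1.68 and 1.51 CPM in knockout replicates 1 to 3, against 2.45, 2.08 and 1.28 CPM in wildtype replicates 1 to 3. The groups overlapped (log2 -0.43, SE 0.29, adjusted p = 0.362, edgeR), and the counts were 28 to 102 reads per library.

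Ccng1 (Entrez 12450, chromosome 11, 40748552 to 40755309) encodes cyclin G1, a p53 target that recruits phosphatase 2A to MDM2. It had 31.0, 16.4 and 17.3 CPM in knockout replicates 1 to 3, against 6.60, 11.2 and 10.2 CPM in wildtype replicates 1 to 3. All knockout libraries lay above all wildtype libraries. Knockout replicate 1 was the highest of its group, as it was for all other members except Chek1 and Cdkn1a. The rise was 2.31-fold (log2 1.21, SE 0.30, adjusted p = 0.0423, edgeR). Without knockout replicate 1 the log2 fold change was 0.85 (adjusted p = 0.142). The adjusted p was 0.0850 and 0.0912 without knockout replicates 2 and 3 and 0.0659 and 0.0775 without wildtype replicates 2 and 3, while without wildtype replicate 1 it was 0.00879 (edgeR).

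**Figure D2:**
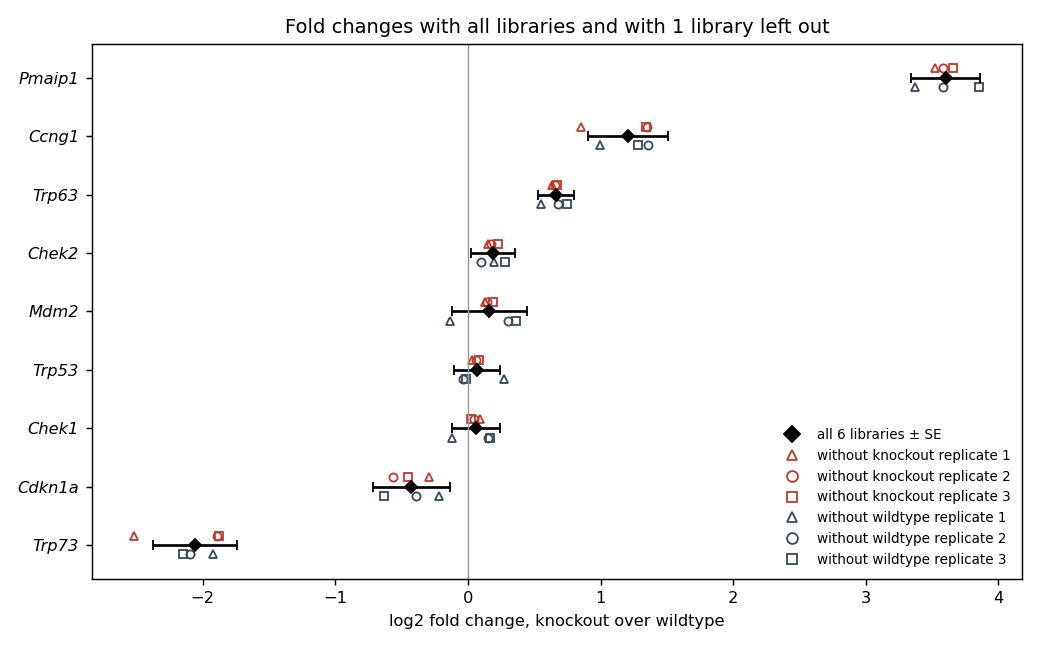
Log2 fold change, knockout over wildtype, of the 9 tested genes (horizontal axis) with all 6 libraries (diamonds with SE) and with each library left out in turn (open markers). Pmaip1 stays between 3.37 and 3.85 and Trp73 between -2.52 and -1.87, while Trp53, Mdm2 and Chek1 lie on both sides of 0.

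Ccng1, Cdkn1a and Trp73 hold close matches to the p53 element in the stretch before an annotated start, and they are shown because they include a gene that rose, one that fell and one that did not pass the test. The consensus element is a pair of adjacent 10-base sites and reads the same on both strands. It was searched over 20 positions without a spacer in the 250 bases before each RefSeq start (GRCm38.p6), in 8 of the 10 genes; the windows of Trp63 and Pmaip1 were not analysed here. The sequences run 5′ to 3′ in the direction of the gene, with the best match in capitals. That of Ccng1 lies at chr11:40755422-40755521 on the minus strand, that of Trp73 at chr4:154097180-154097279 on the minus strand before the inner of its annotated starts, and that of Cdkn1a at chr17:29090888-29090978 on the plus strand, before the outer of its annotated starts. The best match of Bbc3, at chr7:16309446-16309545 on the plus strand, is given for comparison.
Ccng1: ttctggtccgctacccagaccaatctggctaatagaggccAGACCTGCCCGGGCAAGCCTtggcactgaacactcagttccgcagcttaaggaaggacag
Trp73: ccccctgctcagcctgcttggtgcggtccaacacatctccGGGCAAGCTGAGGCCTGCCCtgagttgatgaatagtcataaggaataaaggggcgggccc
Cdkn1a: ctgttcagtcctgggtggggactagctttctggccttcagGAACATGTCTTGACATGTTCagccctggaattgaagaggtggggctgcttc
Bbc3: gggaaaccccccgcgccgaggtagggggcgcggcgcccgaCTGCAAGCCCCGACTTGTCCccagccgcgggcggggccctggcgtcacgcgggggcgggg

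The Ccng1 and Cdkn1a matches each departed from the consensus at 1 of 20 positions, and 0.0761% of 32851 RefSeq promoter windows held a match at least that close. The Trp73 match departed at 2 positions (0.661% of windows held one at least that close) and the Bbc3 match at 3 (5.32%). The window before the outer start of Trp73 had 6 mismatches at best, which 97.4% of windows reached. That before the inner start of Cdkn1a had 5 (71.1%), and the other Bbc3 windows had 5 and 8. These shares are per window, whereas a gene with several windows is given its best match. The best matches of Trp53 and Chek2 had 3 mismatches, that of Mdm2 had 5 and that of Chek1 had 6. Ccng1 and Cdkn1a carry equally close matches, and Trp73 carries the next closest of the 8 genes searched. Because the genes shown differ in outcome by choice, their matches say nothing on the changes. Any link between a match and a change in level was not tested. A match in these letters is a description of the window and not evidence of binding. Elements with a spacer, or outside the 250 bases before a start, were not searched.

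Per kilobase of exon the 10 genes spanned a wide range. In wildtype oocytes the order was Chek1 (139 ± 32.6 CPM per kilobase, SD, n = 3), Mdm2 (34.7 ± 13.6), Trp53 (9.02 ± 2.02), Trp73 (5.12 ± 0.85), Trp63 (4.20 ± 0.58), Ccng1 (2.67 ± 0.70), Chek2 (1.55 ± 0.19), Cdkn1a (0.545 ± 0.168), Pmaip1 (0.224 ± 0.072) and Bbc3. Of these neighbours, the ranges of Trp73 and Trp63 overlapped and the others did not. In knockout oocytes Chek1 (145 ± 6.22 CPM per kilobase), Mdm2 (38.7 ± 1.67) and Trp53 (9.47 ± 0.45) kept the top places. Trp63 (6.63 ± 0.22) and Ccng1 (6.14 ± 2.34) followed with overlapping ranges, then Pmaip1 (2.63 ± 0.27), Chek2 (1.77 ± 0.10) and Trp73 (1.23 ± 0.59), of which the last 2 overlapped.

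**Figure D3:**
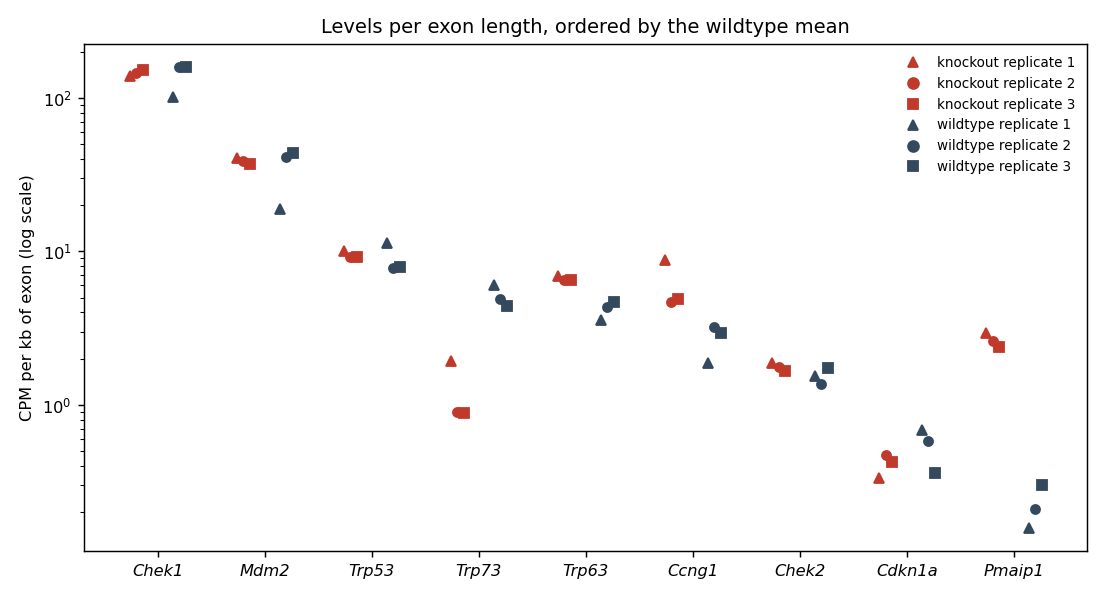
Level per kilobase of annotated exon (CPM per kb, log scale) of 9 genes, ordered by the wildtype mean, with knockout libraries left of wildtype libraries for each gene; Bbc3, with a library at 0, is left out. Trp73 stands above Trp63 in wildtype replicates 1 and 2 and below it in every knockout library. Counted in reads, without the length, Trp73 stands above Trp63 in wildtype replicate 1 only.

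Around the members, 21 partners and regulators of the p53 family were all tested, and 1 rose, 1 fell and 19 did not pass (9.52% called, against 11.2% of all genes). Their median log2 fold change was -0.13, against -0.0025 over all tested genes. Daxx, a chaperone of histone H3.3 that also binds MDM2, had 60.2, 46.4 and 41.6 CPM in knockout replicates 1 to 3, against 30.9, 31.2 and 30.1 CPM in wildtype replicates 1 to 3 (log2 0.69, SE 0.16, adjusted p = 0.0330, edgeR). Hipk2, a kinase that phosphorylates p53, had 41.9, 39.1 and 36.0 CPM in knockout replicates 1 to 3, against 69.9, 55.7 and 57.9 CPM in wildtype replicates 1 to 3 (log2 -0.65, SE 0.14, adjusted p = 0.0252, edgeR). For both genes the groups did not overlap. The Daxx call held without wildtype replicate 1 and was lost without any 1 of the other 5 libraries (adjusted p up to 0.120). The Hipk2 call held without wildtype replicate 1 or 2 and was lost when wildtype replicate 3 or a single knockout library was left out (adjusted p up to 0.121). Mdm4, the MDM2 relative that holds p53 inactive, was among the more abundant transcripts of the list, at 1930, 1885 and 1902 CPM in knockout against 1403, 2204 and 2145 CPM in wildtype replicates 1 to 3 (log2 -0.01, adjusted p = 0.980, edgeR). Without wildtype replicate 1, Mdm4 was called lower (log2 -0.19, adjusted p = 0.00872). Mdm4, and the genes named below without a call other than Prkdc, Timeless and Mcl1, were chosen after their values were seen.

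None of 31 damage sensors and checkpoint signalling genes was called by edgeR, against 11.2% of all tested genes, and 6 had an unadjusted p under 0.05, against 28.8% of all tested genes; DESeq2's Wald test called 0 higher and 2 lower. Their median log2 fold change was 0.10 and the fitted values lay between -0.56 and 0.65. The lowest p-values were those of Prkdc, the DNA-dependent protein kinase (7.89 ± 0.62 CPM in knockout and 11.7 ± 1.59 CPM in wildtype, SD, n = 3 each, log2 -0.56, adjusted p = 0.0615, edgeR), and Timeless, a replication fork protein (76.3 ± 2.51 CPM in knockout and 109 ± 24.7 CPM in wildtype, log2 -0.51, adjusted p = 0.0895, edgeR). In both the groups did not overlap, which held for 16 of the 31 and for 40.2% of all tested genes. Atm and Atr, the kinases above CHK2 and CHK1, had log2 fold changes of 0.23 and 0.33 (adjusted p = 0.476 and 0.202, edgeR). The casein kinase 1 genes Csnk1a1, Csnk1d and Csnk1e had log2 fold changes of -0.12, 0.47 and -0.32 (adjusted p = 0.646, 0.132 and 0.221, edgeR). Without wildtype replicate 1 the list had 4 genes called higher and 5 lower, where 16.7% of all tested genes were called higher and 17.7% lower, and it had none when a library other than that was dropped.

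Of 33 other p53 target genes 30 were tested, and 1 rose, 1 fell and 28 did not pass (6.67% called, against 11.2% of all genes). The median log2 fold change was 0.13. Plk2, a polo-like kinase induced by p53, had 7.28, 5.24 and 5.99 CPM in knockout replicates 1 to 3, against 1.46, 3.66 and 2.24 CPM in wildtype replicates 1 to 3 (log2 1.34, SE 0.33, adjusted p = 0.0386, edgeR). Btg2, an antiproliferative gene whose protein also promotes deadenylation of mRNA, had 21.9, 18.3 and 18.1 CPM in knockout replicates 1 to 3, against 37.4, 31.6 and 35.6 CPM in wildtype replicates 1 to 3 (log2 -0.85, SE 0.14, adjusted p = 0.0107, edgeR). In both every knockout library lay on one side of every wildtype library. The Plk2 call was lost when wildtype replicate 3 or a single knockout library was left out (adjusted p up to 0.159), and the Btg2 call without knockout replicate 2 or 3 (adjusted p = 0.0763 and 0.0719). Bax, the pore-forming death effector, had 24.7, 29.0 and 28.3 CPM in knockout against 28.2, 20.6 and 19.3 CPM in wildtype replicates 1 to 3, with overlapping groups (log2 0.27, adjusted p = 0.344, edgeR). Without wildtype replicate 1 it was called higher (log2 0.46, adjusted p = 0.00614). In that fit 6 of the 30 were called higher and 6 lower, beside 16.7% and 17.7% of all tested genes.

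Of 8 BCL2 proteins that PUMA and NOXA act on or with, 7 were tested, 1 fell and none rose, where 5.34% of all tested genes fell and 5.87% rose. Bcl2, an antiapoptotic gene that was scarce here, had 0.177, 0.187 and 0.265 CPM in knockout replicates 1 to 3, against 0.889, 0.539 and 0.503 CPM in wildtype replicates 1 to 3 (log2 -1.64, SE 0.39, adjusted p = 0.0356, edgeR). These levels rest on few reads, and the call held without wildtype replicate 1 (adjusted p = 0.0452) and was lost without any 1 of the other 5 libraries (adjusted p up to 0.154). Mcl1, whose protein is the partner of NOXA, had 18.1, 11.2 and 9.11 CPM in knockout against 5.16, 8.67 and 12.6 CPM in wildtype replicates 1 to 3 (log2 0.55, SE 0.36, adjusted p = 0.349, edgeR). The groups overlapped. Bcl2l10, the most abundant of the list and a known oocyte transcript, averaged 3197 ± 141 CPM in knockout and 3445 ± 215 CPM in wildtype (SD, n = 3 each, adjusted p = 0.551, edgeR).

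**Figure D4:**
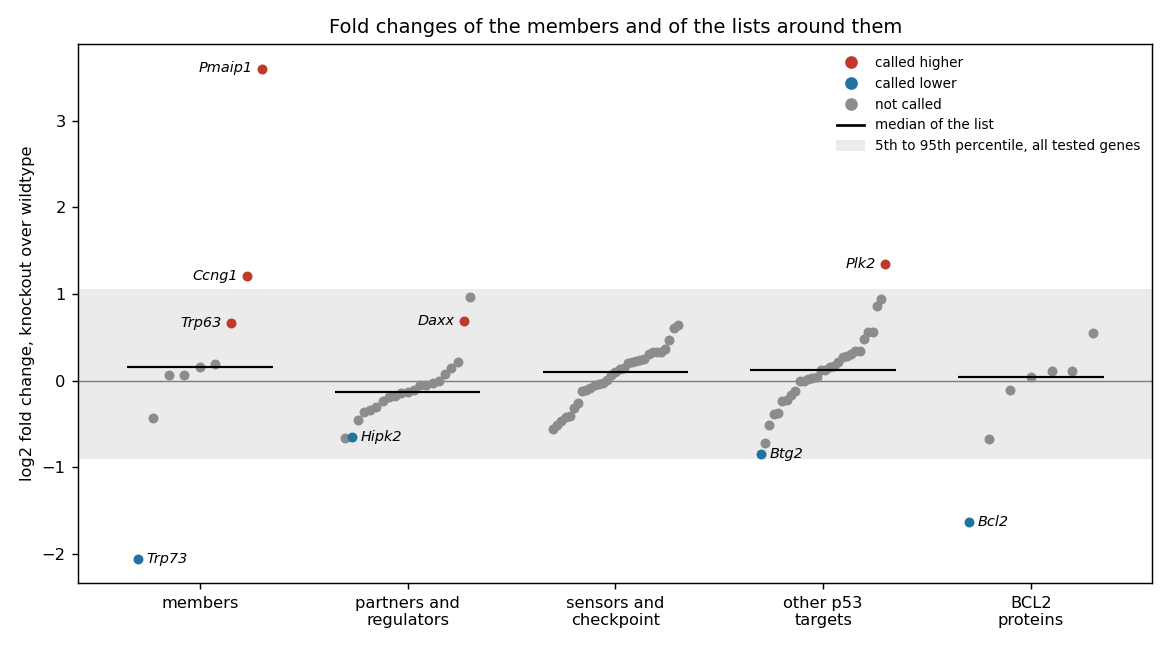
Log2 fold change, knockout over wildtype (vertical axis), of the tested genes among the 10 members and in 4 lists around them, each gene a point, with list medians as bars and the 5th to 95th percentile of all tested genes (-0.90 to 1.05) shaded. Pmaip1, Ccng1, Trp73, Plk2 and Bcl2 are the called genes outside the shaded band.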

How the data were processed

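RNA of 6 pools of about 10 GV oocytes was amplified with the SMARTer Ultra Low Input kit and sequenced single-end from NexteraXT libraries, per the labels' protocols. The deposited values are raw counts of reads per Entrez gene, 1 file per library; STAR 2.7.11a, featureCounts 2.0.3 and GRCm38.p6 (mm10) are named in the submitters' processing notes. Annotation, strand setting and treatment of multimapping reads: not given in the sources used here. Of 27179 identifiers 25275 were named from RefSeq and 18 from GENCODE M21. In RefSeq the members overlap no gene that the count files hold.

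Genes passing edgeR's filterByExpr (minimum count 10) were kept (14957), TMM-scaled, and compared between genotypes by the quasi-likelihood F test of edgeR 4.0.16 (R 4.3.3), with Benjamini-Hochberg adjustment over all tested genes and calls at an adjusted p under 0.05. The SE is the absolute log2 fold change over the square root of F. CPM uses the scaled library sizes; 1 read is worth 0.0240 to 0.0457 CPM. Levels per kilobase use the union of GENCODE M21 exons. Likeness of pattern used log2(CPM + 0.5). The fit was also run on simulated counts in which no library stood apart, so that run does not cover the effect of wildtype replicate 1. No molecular identifiers are described, so floors cover counting error only.

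No pair of libraries agreed within sampling noise. The members and lists were chosen with earlier results of these data known. Named genes are all members, the called genes of each list (up to 8, or the 2 lowest p-values where fewer than 2 were called), and the 3 nearest patterns for Trp63 and Trp73; other genes were named after their values were seen. Alternatives were other scalings and filters, DESeq2 1.42.0, the replicate number as a block, and each library left out in turn.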

Additional observations from a re-analysis of the deposited data

How the results depend on the processing

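Among all genes, 878 were called higher and 798 lower; the counts were 513 and 525 with at least 5 CPM in 3 libraries, 1329 and 1342 with DESeq2, and 216 to 2526 and 141 to 2673 with 1 library left out, the highest without wildtype replicate 1. Of the 10 genes 3 were called higher and 1 lower, under both other scalings, both other filters and DESeq2 alike; with 1 library left out 1 to 4 were called higher and 0 to 1 lower. The partners and regulators had 1 higher and 1 lower (0 to 1 and 0 to 2 with 1 library left out; 2 lower with DESeq2), the damage sensors 0 and 0 (0 to 4 and 0 to 5; 1 lower under the 5 CPM filter and 2 lower with DESeq2), the other targets 1 and 1 (0 to 6 and 0 to 6; 3 higher and 2 lower with DESeq2), and the BCL2 list 0 and 1 (0 to 0 and 0 to 1; 0 lower under the 5 CPM filter, where Bcl2 was not tested). With 1 library left out the log2 fold change was 0.55 to 0.75 for Trp63, -2.52 to -1.87 for Trp73, 0.85 to 1.36 for Ccng1, -0.035 to 0.27 for Trp53, -0.14 to 0.36 for Mdm2 and -0.12 to 0.16 for Chek1. The sign turned for Trp53 without wildtype replicates 2 and 3 (-0.035 and -0.014) and for Mdm2 and Chek1 without wildtype replicate 1 (-0.14 and -0.12), none of them called. The cause was not tested.

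The labels give no pairing of the libraries by replicate number. Same-numbered deviations from the group means correlated at -0.0855, -0.0052 and -0.107. With 3 libraries per group and wildtype replicate 1 standing apart, these values cannot exclude a pairing. With the replicate block 327 genes were called higher and 210 lower. Trp63 (log2 0.67, adjusted p = 0.0840, edgeR) and Ccng1 (1.17, adjusted p = 0.126, edgeR) did not pass. Of the 10 genes 1 was called higher (Pmaip1) and 1 lower (Trp73). The partners and regulators had 0 and 0, and the BCL2 list had 0 lower. The other targets had 0 higher and 1 lower, Btg2 (log2 -0.85, adjusted p = 0.0435, edgeR). Levels under about 1 CPM (Bbc3, Bcl2 and Pmaip1 in wildtype) rest on few reads.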

Other observations

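Some transcripts of other ovarian cells followed neither genotype. Cyp11a1, the first enzyme of steroid synthesis, had 76, 77 and 417 reads in knockout replicates 1 to 3, against 476, 45 and 21 reads in wildtype replicates 1 to 3. Acta2, smooth muscle actin, was high in the same libraries, with 1, 2 and 29 reads in knockout and 55, 2 and 0 reads in wildtype replicates 1 to 3. Knockout replicate 3 and wildtype replicate 1 held the most of both genes, which were picked after their values were seen. Of the same marker list Cyp17a1, Star, Lhcgr, Col1a1, Col1a2, Col3a1 and, by less, Dcn were also highest there. Pdgfra and Nr2f2 went another way. Pdgfra had 1.47, 1.34 and 1.03 CPM in knockout against 0.624, 0.501 and 0.869 CPM in wildtype replicates 1 to 3. Nr2f2 had 0.648, 0.641 and 0.689 CPM in knockout against 1.73, 0.963 and 1.10 CPM in wildtype replicates 1 to 3. Neither was called.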
